A study of Mus musculus with 16 samples.

Results

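The DNA methyltransferase and Tet loci are the 8 genes Dnmt1, Uhrf1, Dnmt3a, Dnmt3b, Dnmt3l, Tet1, Tet2 and Tet3 of 21887 protein-coding mouse genes, each taken with 50 kb of flanking DNA on either side (genome build mm10). Every peak of 16 ATAC-seq peak lists inside these windows was taken, and a gene end peak is a peak within 1 kb of either end of a gene. Merged over the 16 lists, the peaks at the 8 loci formed 155 regions, of 163173 regions genome-wide. ATAC-seq marks open DNA by transposase insertion. All libraries came from mouse Rx:GFP knock-in cells, which carry a GFP reporter in Rx, an eye field gene. The embryoid bodies (EBs), grown by the SFEBq method toward neural and retinal tissue, were Wdr5 and p53 double knockout EBs, whose labels give no day and name no plasmid, and parental EBs, at day 4 by label. The embryonic stem cells (ESCs), kept in 2i+LIF, were double knockout ESCs stably transfected with the S91K-Y191F mutant of WDR5, with wild-type WDR5 (WDR5WT) or with the backbone plasmid alone, p53 knockout clones C9 and H9, with the parental line. C9 and H9 are 1 clone each, and the transfected lines all lack endogenous Wdr5 and p53. Each of the 8 groups had 2 libraries, and nothing in the labels says that they came from separate cultures, so any spread given here may be technical.

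Methyl groups on CpG cytosines are copied to new DNA strands by Dnmt1, which Uhrf1 brings to half-methylated sites after replication. Dnmt3a and Dnmt3b place methyl groups on unmethylated DNA, and Dnmt3l, which has no catalytic activity of its own, stimulates them. Tet1, Tet2 and Tet3 oxidise 5-methylcytosine and so start its removal. ESCs in 2i medium are known for low DNA methylation, and Dnmt3b is known to increase as pluripotent cells leave the naive state.

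The genes differ in their start sites, which the following sequences show before the values. They are the 250 bases before the start site in RefSeq's promoter table (build GRCm38.p6, 5′ to 3′ on the gene's strand), with every CpG in capitals. Uhrf1, Dnmt1 and Tet2 had a peak over the shown start site in 8 or more of the 12 ESC lists, and the start sites of Dnmt3a, Dnmt3b and Dnmt3l in 1 or 2.
Uhrf1, chr17:56304063-56304312, plus strand: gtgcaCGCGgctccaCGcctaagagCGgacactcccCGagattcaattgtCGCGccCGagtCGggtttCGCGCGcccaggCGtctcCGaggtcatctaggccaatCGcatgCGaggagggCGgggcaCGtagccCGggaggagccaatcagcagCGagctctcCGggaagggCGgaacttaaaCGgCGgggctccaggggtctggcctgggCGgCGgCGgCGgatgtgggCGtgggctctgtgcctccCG
Dnmt1, chr9:20952624-20952873, minus strand: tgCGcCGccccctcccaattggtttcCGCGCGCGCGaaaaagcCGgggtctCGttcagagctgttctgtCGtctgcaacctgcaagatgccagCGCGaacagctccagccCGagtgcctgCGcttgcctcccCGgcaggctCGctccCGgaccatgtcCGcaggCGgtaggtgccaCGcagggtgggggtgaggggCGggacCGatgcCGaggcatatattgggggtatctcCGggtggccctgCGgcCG
Tet2, chr3:133544391-133544640, minus strand: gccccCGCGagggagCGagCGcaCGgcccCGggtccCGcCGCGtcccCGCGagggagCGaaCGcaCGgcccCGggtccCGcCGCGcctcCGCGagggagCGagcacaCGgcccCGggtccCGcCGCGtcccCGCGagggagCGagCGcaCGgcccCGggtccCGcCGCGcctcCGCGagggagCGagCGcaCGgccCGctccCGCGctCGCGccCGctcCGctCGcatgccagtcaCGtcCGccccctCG
Dnmt3a, chr12:3806910-3807159, plus strand: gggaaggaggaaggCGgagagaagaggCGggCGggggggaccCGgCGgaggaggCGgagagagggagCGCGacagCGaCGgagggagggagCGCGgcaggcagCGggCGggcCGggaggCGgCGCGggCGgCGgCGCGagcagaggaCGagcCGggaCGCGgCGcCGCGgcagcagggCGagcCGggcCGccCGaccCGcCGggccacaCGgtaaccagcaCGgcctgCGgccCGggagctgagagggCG
Dnmt3b, chr2:153649199-153649448, plus strand: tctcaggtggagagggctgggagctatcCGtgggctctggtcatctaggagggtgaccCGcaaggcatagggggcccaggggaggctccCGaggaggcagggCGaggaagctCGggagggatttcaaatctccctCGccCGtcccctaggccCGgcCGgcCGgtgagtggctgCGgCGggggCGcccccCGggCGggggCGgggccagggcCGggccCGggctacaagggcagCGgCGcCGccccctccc
Dnmt3l, chr10:78049592-78049841, plus strand: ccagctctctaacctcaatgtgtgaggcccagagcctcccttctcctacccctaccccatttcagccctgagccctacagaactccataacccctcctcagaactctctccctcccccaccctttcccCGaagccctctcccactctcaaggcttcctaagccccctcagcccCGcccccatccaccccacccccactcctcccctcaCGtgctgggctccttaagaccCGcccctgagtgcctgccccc
The Tet2 stretch held 51 CpGs, at percentile 99.9 of 21263 windows of protein-coding genes, whose median was 10. The Dnmt3a, Uhrf1, Dnmt1 and Dnmt3b stretches held 40, 30, 26 and 21 CpGs, and the Dnmt3l stretch held 4. CpG number and ESC peaks did not go together at every gene, since the Dnmt3a stretch held more CpGs than that of Uhrf1 and had a peak in 1 ESC list against 10. With the start site windows widened by 500 bp it was 3 against 10. On both strands of the full 300-base windows, the GC box GGGCGG matched in 11 of the 15 windows of the 8 genes and in 42.6% of all windows, and CCAAT in 5 of 15 and in 35.4% of all. CACGTG matched in 2 of 15, at Dnmt3a and Dnmt3l, and in 6.63% of all. CCGGAA, TTTCCCGC and TTTGGCGC had no match in the 15 windows, and these letters were in 15.0%, 1.19% and 0.508% of all windows.

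The deposited files are peak lists without read counts, so sequencing depth is unknown. The lists held 75673 to 93646 peaks in EBs, 26305 to 32709 in the C9, H9 and WDR5WT ESCs, and 1535 to 24367 in the S91K-Y191F, backbone and parental ESCs. Replicates of S91K-Y191F ESCs (5174 and 16257 peaks) and of parental ESCs (24367 and 5330) lay far apart. The S91K-Y191F, backbone and parental ESC lists also differed in form, with a widest peak of 18810 to 29214 bp, against 7727 to 15921 bp in the C9, H9 and WDR5WT lists. Of 10 pluripotency marker genes, 9 or 10 had an end peak in the EB lists, 7 to 9 in the C9, H9 and WDR5WT lists and 1 to 9 in the other ESC lists. Of 7 neural and eye field markers, 6 or 7 had an end peak in the EB lists and 0 to 5 in the ESC lists, and all 5 feeder fibroblast markers had one in the EB lists against 0 to 3 in the ESC lists. All 5 mesoderm markers had one in the EB lists too, against 0 to 4 in the ESC lists. Of all genes, 64.6% to 66.7% had an end peak in the EB lists and 1.25% to 54.9% in the ESC lists. These marker counts therefore name no cell type. Fewer cells of a type and less open chromatin per cell cannot be told apart in such bulk samples, and the part of cell makeup in any difference below was not tested.

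The number of peaks at the 8 loci followed the length of the lists. Double knockout EBs had 93 and 97 peaks at the 8 loci together and parental EBs 103 and 96. S91K-Y191F ESCs had 8 and 29, WDR5WT ESCs 36 and 39, backbone ESCs 1 and 2, C9 ESCs 32 and 31, H9 ESCs 40 and 40, and parental ESCs 35 and 9. The loci were richer in peaks than the typical gene, with a median over the 8 loci of 11.5 to 12 in the EB lists, against 6 to 7 over all genes with the same flanks. Gene length enters such counts, and the 8 windows span 120.2 kb at Uhrf1 to 212.9 kb at Dnmt3a. Dnmt3a, a de novo methyltransferase, had the most peaks in all 4 EB lists, with 20 and 21 in double knockout EBs and 26 and 20 in parental EBs. Uhrf1, the Dnmt1 recruiter, was the only locus with a peak in all 12 ESC lists.

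**Figure D1:**
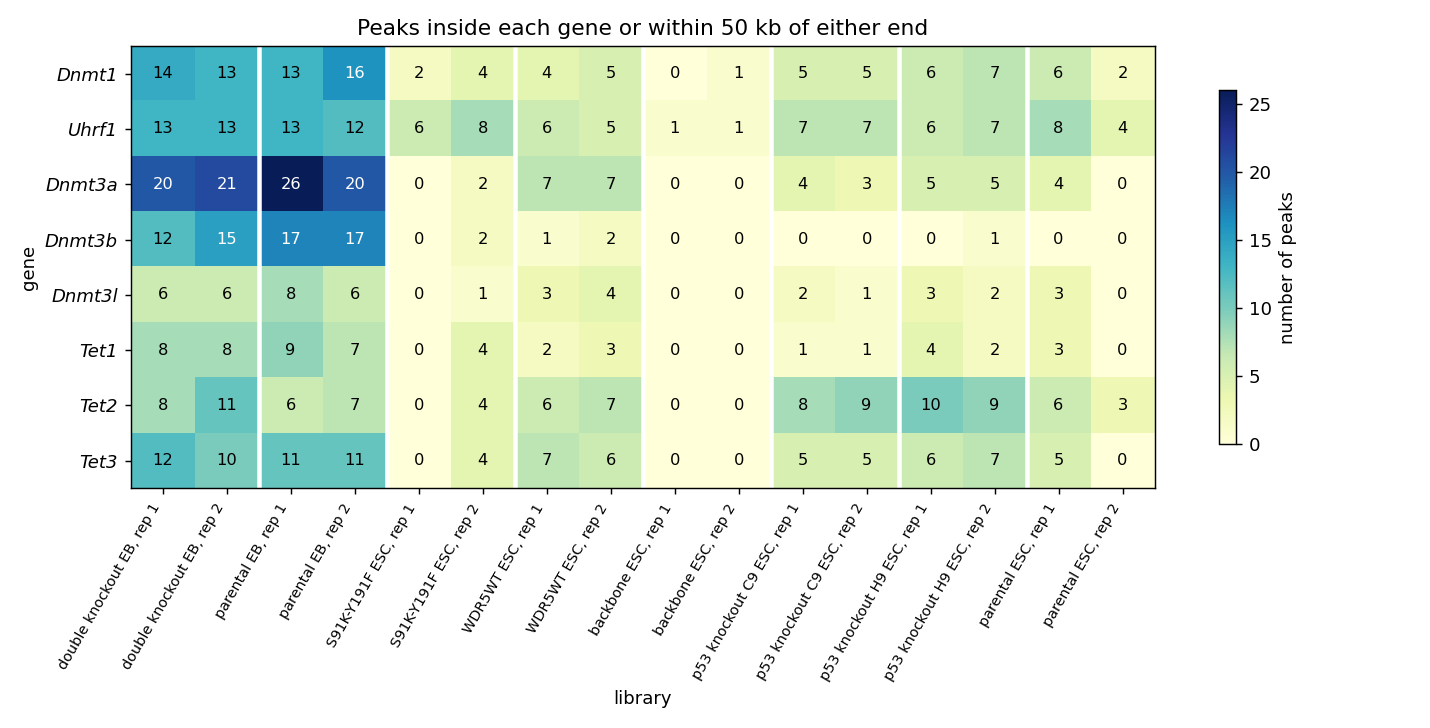
Number of peaks inside each gene or within 50 kb of either end (colour and printed number), by gene (rows) and library (columns, 2 per group). EB lists had 6 or more peaks at every locus, while backbone ESC lists had 1 and 2 peaks in all and Dnmt3b had 0 to 2 peaks in every ESC list.

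Peak numbers at some loci did not follow the length of the lists, as was so for many other genes. Tet2 had 8 and 11 peaks in double knockout EBs and 6 and 7 in parental EBs, against 6 to 10 in the C9, H9 and WDR5WT ESCs, although the EB lists were longer. Per 10000 peaks of a list, Tet2 had 0.663 to 1.17 peaks in EBs and 2.01 to 3.25 in those 6 ESC lists. Tet3 had 1.07 to 1.54 in EBs and 1.57 to 2.35 in the same ESC lists. Both were lower in every EB list, as were 19.9% of all genes. Dnmt3b had 1.54 to 2.25 peaks per 10000 in EBs and 0 to 0.611 in the 6 ESC lists, and was higher in every EB list, as were 16.9% of all genes. The EB and ESC lists have different columns and score scales, so the counts are given as the lists stand. Peaks were also narrower in the EB lists, with medians of 343 to 364 bp, against 621 to 668 bp in the 6 ESC lists.

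Peak numbers per locus were set against each other in 9 pairs of groups by two-sided exact permutation tests, 8 per pair. The smallest p such a test can give is 0.333 for 2 libraries against 2 and 0.0667 for designs of 2 and 4 libraries, so no difference could pass 0.05. Between double knockout and parental EBs, Tet2 had more peaks in every double knockout library (8 and 11, against 6 and 7, exact p = 0.333), as had 9.73% of all genes. Dnmt3b had fewer (12 and 15 in double knockout EBs, against 17 and 17 in parental EBs, exact p = 0.333), as had 15.7% of all genes. The other 6 loci overlapped between the EB genotypes. Between WDR5WT and p53 knockout ESCs, Dnmt3a had 7 and 7 peaks in WDR5WT ESCs, against 3 to 5 in the 4 p53 knockout libraries (exact p = 0.0667, and 7.09% of all genes were higher without overlap). Tet2 ran the other way, with 6 and 7 peaks in WDR5WT ESCs, against 8 to 10 in p53 knockout ESCs (exact p = 0.0667, and 2.29% of all genes). Tet2 also had more peaks in every p53 knockout library than in parental ESCs (8 to 10, against 6 and 3, exact p = 0.0667), as had 20% of all genes. Per 10000 peaks of a list this turned and the groups overlapped, with 2.83 to 3.25 in p53 knockout ESCs, against 2.46 and 5.63 in parental ESCs. Between the clones, Dnmt1, Dnmt3a, Tet1 and Tet3 had fewer peaks in both C9 libraries than in both H9 libraries, by 1.5 to 2 peaks on average (exact p = 0.333 each), as had 13.2% of all genes. Against backbone ESCs, all 8 loci had more peaks in WDR5WT ESCs, as had 80.2% of all genes, but per 10000 list peaks Uhrf1 averaged 1.77 in WDR5WT and 5.26 in backbone ESCs, and Dnmt1 1.44 and 2.01. Dnmt1 and Uhrf1 had more in S91K-Y191F ESCs, as had 24.3% of all genes. Dnmt1, Uhrf1 and Tet2 had fewer peaks in backbone than in parental ESCs, as had 23.6% of all genes. Dnmt3a, Dnmt3l, Tet2 and Tet3 had fewer in S91K-Y191F than in WDR5WT ESCs, as had 52.3% of all genes. In parental EBs, 7 loci, all but Tet2, had more peaks than in parental ESCs, as had 81.3% of all genes. Per 10000 list peaks Dnmt1 averaged 1.78 in parental EBs and 3.11 in parental ESCs, and Uhrf1 1.51 and 5.39, so both turned.

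At Dnmt1, the maintenance methyltransferase (chromosome 9, 20907206 to 20959888, minus strand), the peak over the start site was found in every list but those of backbone ESCs. The region spans 20952195 to 20953432, 7.07 kb downstream of the annotated 5′ end, and covers 2 of the 3 annotated start sites. Its fold enrichment over local background, as the authors' EB lists give it, was 4.53 and 6.22 in double knockout EBs and 6.10 and 5.98 in parental EBs. Its signal, a value of unstated scaling that is at least 200 in the ESC lists, was 538 and 950.1 in S91K-Y191F ESCs, 839 and 896 in WDR5WT ESCs, 975 and 729.5 in C9 ESCs, 823 and 859 in H9 ESCs and 1170.3 and 391 in parental ESCs. In the EB lists it ranked within the top 4.54% to 17.2% of all peaks. The most 5′ start site of Dnmt1 had a peak in none of the 16 lists. An intragenic region at 20943773 to 20944481, 15.8 kb downstream of the 5′ end, had a peak in all 4 EB lists and in no ESC list, with a fold enrichment of 2.81 and 3.52 in double knockout EBs and 4.03 and 3.90 in parental EBs. Of the other regions in 9 or more of the 16 lists, 3 lay at the neighbouring genes Angptl6 (11 ESC and 4 EB lists), Ppan (8 and 4) and S1pr2 (7 and 4), and 2, at 20978524 to 20979536 and 21002562 to 21003469, lay within 1 kb of no other gene (5 and 4 each).

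At Uhrf1 (chromosome 17, 56303337 to 56323486, plus strand), the region over both annotated start sites, 56302491 to 56304704, was again in every list but those of backbone ESCs. The fold enrichment was 3.92 and 4.01 in double knockout EBs and 4.03 and 4.38 in parental EBs. The signal was 349 and 1026 in S91K-Y191F ESCs, 1029 and 1412 in WDR5WT ESCs, 1354 and 711 in C9 ESCs, 1359.7 and 769 in H9 ESCs and 1284 and 206 in parental ESCs. In parental replicate 2 this peak ranked near the end of its list, at 97.0% of all peaks counted from the highest signal. The second, CpG-rich start site had a peak in 10 ESC lists and the first, with 10 CpGs in the 250 bases before it, in 8. The 1 region of the 155 that was found in all 16 lists lay in the Uhrf1 window, at 56325312 to 56326441 by the end of Kdm4b, a histone demethylase gene. There, the fold enrichment was 5.74 and 5.97 in double knockout EBs and 6.45 and 6.65 in parental EBs, and the ESC signals ran from 237 in backbone replicate 1 to 2087 in WDR5WT replicate 2, with a median of 1477. So the peak that all ESC lists had at Uhrf1 was not at Uhrf1 itself.

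Dnmt3a (chromosome 12, 3801559 to 3914443, plus strand) is known to have an internal promoter for a shorter isoform, the main one in ESCs, besides its first promoter. The start site windows reflect both, a pair at 3806980 and 3807160 and an internal one at 3891744. The region around the first pair, 3806029 to 3809080, had a peak in all 4 EB lists and in 4 ESC lists. Its fold enrichment was 4.14 and 3.91 in double knockout EBs and 3.92 and 4.07 in parental EBs, and its ESC signal was 234 and 1308 in WDR5WT ESCs and 223 and 210.0 in H9 ESCs. Only 1 EB and 1 ESC list, parental EB replicate 1 and WDR5WT replicate 2, had a peak over the 300-base windows themselves, and widening the windows by 500 bp gave 4 EB and 3 ESC lists. The internal region, 3891108 to 3892347, was likewise in all EB lists, with a fold enrichment of 2.52 and 3.02 in double knockout EBs and 3.79 and 3.44 in parental EBs. In ESCs its signal was 276 and 593 in WDR5WT, no peak and 214 in C9 and 224 and no peak in H9 libraries. No list had a peak within 1 kb of either annotated end of Dnmt3a, since its 5′ end lies more than 5 kb before the first of these start sites. Of the 31 regions at Dnmt3a, 24 were in EB lists only and none in ESC lists only, and 10 were in just 1 list. Over all 8 loci 99 of 155 regions were in EB lists only, and the share of all regions by this rule was not taken. Of the 12 Dnmt3a regions in all 4 EB lists, 6 had no ESC peak, 4 of them inside the gene at 24.4, 32.9, 51.2 and 86.1 kb from the 5′ end. Over all 8 loci, 21 of 61 regions in all 4 EB lists (34.4%) had no ESC peak, and genome-wide 39.7%.

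Dnmt3b (chromosome 2, 153649411 to 153687730, plus strand), the other de novo enzyme, had 12 to 17 peaks in the EB lists and 0 to 2 in the ESC lists. The start site region, 153648863 to 153650456, had a fold enrichment of 3.80 and 3.49 in double knockout EBs and 4.06 and 3.49 in parental EBs. Among ESCs it was listed only in WDR5WT replicate 2 and H9 replicate 2, with signals of 686 and 282, so neither group had it in both replicates. Upstream, 6 regions between 49.0 and 6.28 kb from the 5′ end were in all 4 EB lists and in no ESC list. The highest fold enrichments among them were at 153622273 to 153623312, with 4.38 and 4.51 in double knockout EBs and 4.18 and 4.32 in parental EBs, and at 153632193 to 153632921 by the end of Commd7, with 3.69 and 4.67 in double knockout EBs and 3.87 and 4.96 in parental EBs. The most frequent ESC peak lay 39.6 kb upstream, at 153609623 to 153610091, with signals of no peak and 220.2 in S91K-Y191F and 357 and 235 in WDR5WT libraries and no peak in the other 8 ESC lists. All 4 EB lists had it too.

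**Figure D2:**
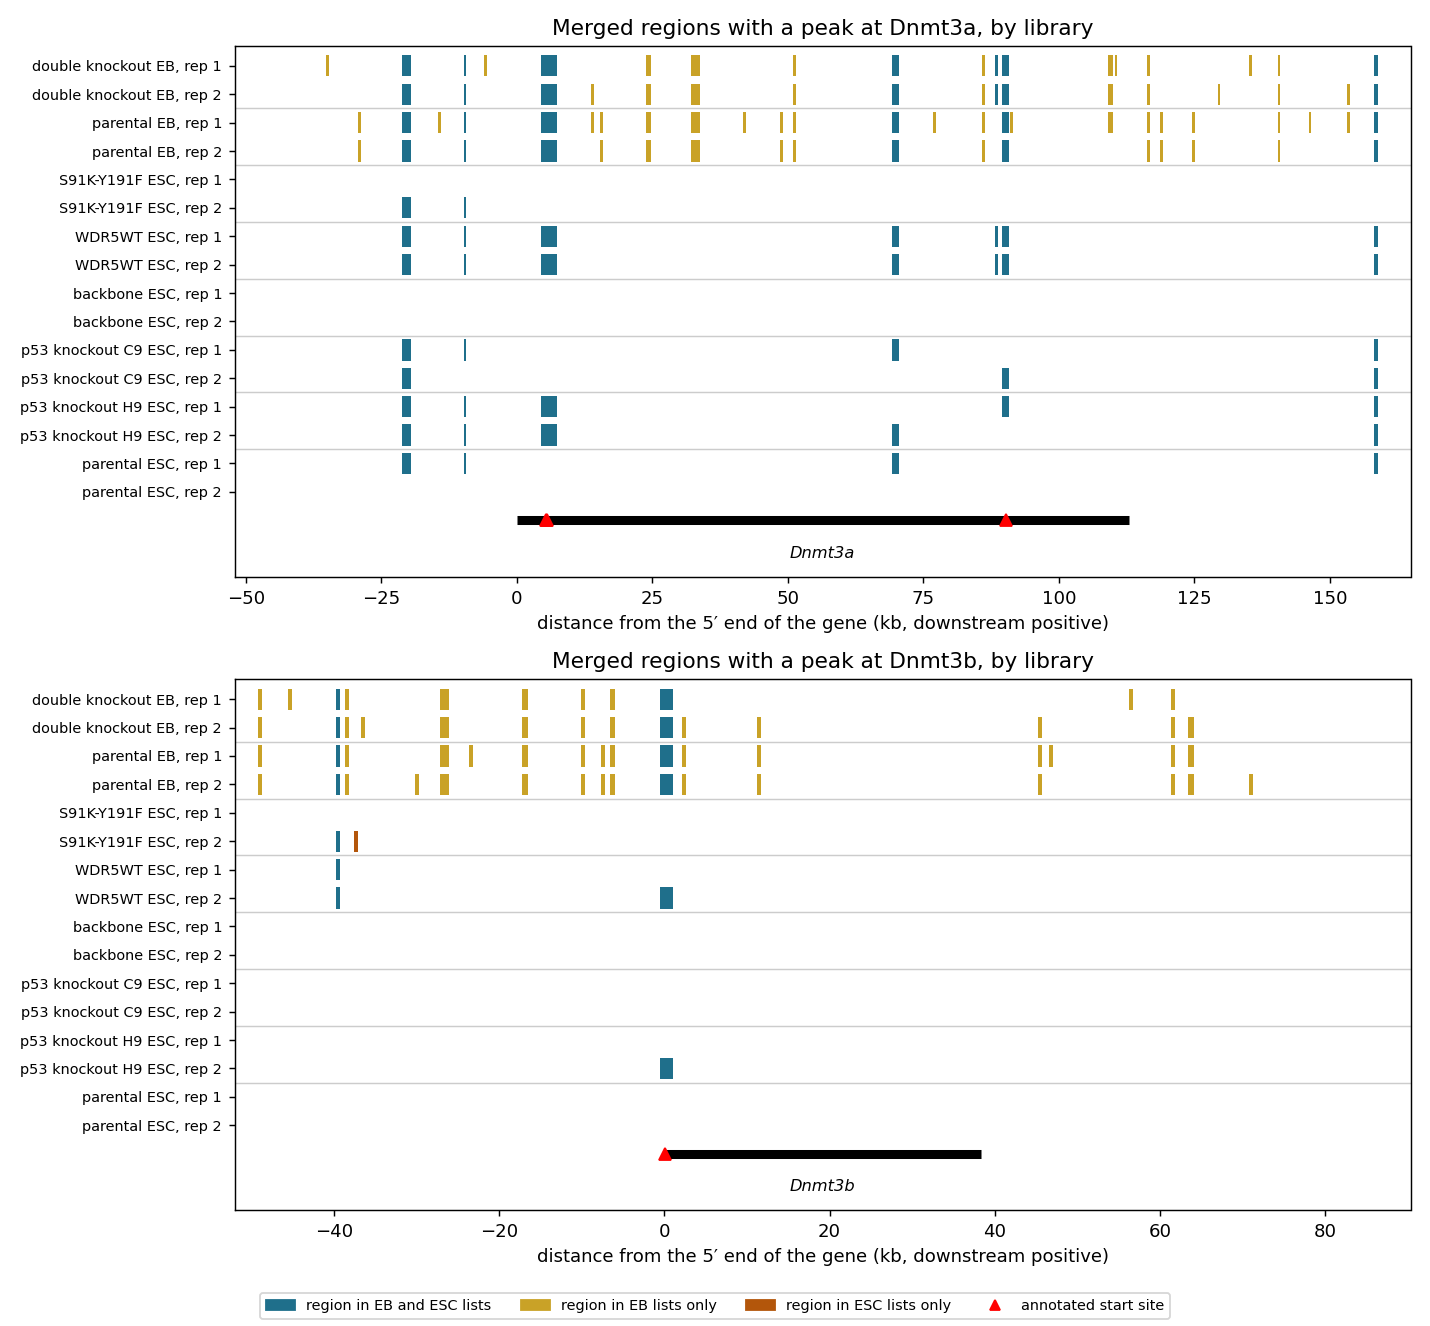
Merged regions at Dnmt3a (top) and Dnmt3b (bottom) by library (rows) and distance from the 5′ end in kb. Bars mark a peak in that library, coloured by whether the region occurs in both kinds of list, in EB lists only or in ESC lists only. The Dnmt3b window is nearly empty in ESC lists (0 to 2 peaks), and 24 of 31 Dnmt3a regions occur in EB lists only. Of these 31, 10 occur in just 1 list, and the share of all regions in EB lists only was not taken.

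Dnmt3l (chromosome 10, 78042287 to 78063622, plus strand), the cofactor of the de novo enzymes, had 6 to 8 peaks in EBs and 0 to 4 in ESCs. Of its 3 annotated start sites, the first had a peak in no list. The second, whose sequence is shown above, was in all 4 EB lists with a fold enrichment of 2.66 and 3.83 in double knockout EBs and 3.96 and 3.31 in parental EBs. Among ESCs only the WDR5WT libraries had it, with signals of 237 and 213, close to the least value listed and ranked at 89.4% and 96.2% of their lists. The third was in parental EBs alone, with a fold enrichment of 2.61 and 2.76. A region 32.7 kb upstream at the end of Pfkl, 78008896 to 78010210, was in 8 ESC lists and in no EB list. Its signal was 1166 and 1344 in WDR5WT, 634 and 685 in C9 and 1058 and 547 in H9 ESCs, with 1 library each of S91K-Y191F (606) and parental ESCs (705).

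The Tet genes differed from each other in ESCs. Tet1 (chromosome 10, 62804570 to 62887469, minus strand), known as a main Tet enzyme of ESCs, had a peak over its start site window in all EB lists and in 1 ESC list. The fold enrichment there was 3.36 and 3.52 in double knockout EBs and 3.41 and 3.59 in parental EBs, and the signal was 293 in H9 replicate 1. The merged start region, 62885827 to 62887636, also held a peak of H9 replicate 2 with a signal of 211. An intragenic region 21.6 kb downstream of the 5′ end, 62865177 to 62866572, had a fold enrichment of 5.83 and 5.01 in double knockout EBs and 4.73 and 5.43 in parental EBs, and a peak in 1 ESC list, WDR5WT replicate 2 (signal 367). The window's most frequent ESC peak lay at the neighbour Ccar1, in 8 ESC lists.

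Tet2 (chromosome 3, 133463677 to 133545136, minus strand), with no other protein-coding gene in its window, had 38 of the 98 peaks that the 12 ESC lists held inside the 8 genes, more than any other member. The start site region, 133543590 to 133545330, had a fold enrichment of 4.06 and 4.49 in double knockout EBs and 4.42 and 4.76 in parental EBs. Its signal was no peak and 477 in S91K-Y191F ESCs, 1434 and 2604 in WDR5WT ESCs, 732 and 804 in C9 ESCs, 1558 and 1711 in H9 ESCs and 779.9 and no peak in parental ESCs, with no peak in backbone ESCs. The first intragenic region, 11.5 kb downstream at 133532698 to 133534524, had a fold enrichment of 6.51 and 5.98 in double knockout EBs and 5.17 and 4.80 in parental EBs. It was in 9 ESC lists at 237 to 2259, with a median signal of 2014. The lowest of these was parental replicate 2.

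Further into Tet2, 2 regions were in 6 or more ESC lists and in no EB list, besides a region 29.3 kb from the 5′ end that parental ESC replicate 1 alone held (235.2). The region at 133524368 to 133525597, 20.2 kb from the 5′ end, was in 9 ESC lists, with signals of no peak and 1171 in S91K-Y191F ESCs, 1100.2 and 1257 in WDR5WT ESCs, 1515 and 1768 in C9 ESCs, 1819 and 1406 in H9 ESCs and 1244 and 409 in parental ESCs. It ranked between the top 6.69% and 40.4% of the lists that held it. The region at 133518242 to 133519524, 26.3 kb from the 5′ end, was in 6 ESC lists, with 818 and 805 in WDR5WT, no peak and 237 in C9, 310.2 and 415 in H9 and 791 and no peak in parental ESCs. EBs of both genotypes had no peak at either region and had peaks at the start site and at 11.5 kb. Upstream, a region 45.7 kb before the gene, 133590488 to 133591107, was in all 4 p53 knockout lists, with 373 and 314 in C9 and 481 and 486 in H9 ESCs, and in WDR5WT replicate 2 (229), and in no other list. Of the 13 regions at the 8 loci in ESC lists only, 9 were at Tet2, and the share of all regions by this rule was not taken. Some of the 9 were in 1 ESC list only, with signals of 231 and 235, near the least value listed. Counting only regions in at least 6 of the 12 ESC lists, 3 of 22 at the 8 loci had no EB peak (13.6%), the pair inside Tet2 and the one at Pfkl, and genome-wide 12.7%. The share at the 8 loci was thus near that of all regions. Sequence for these regions was not used here.

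**Figure D3:**
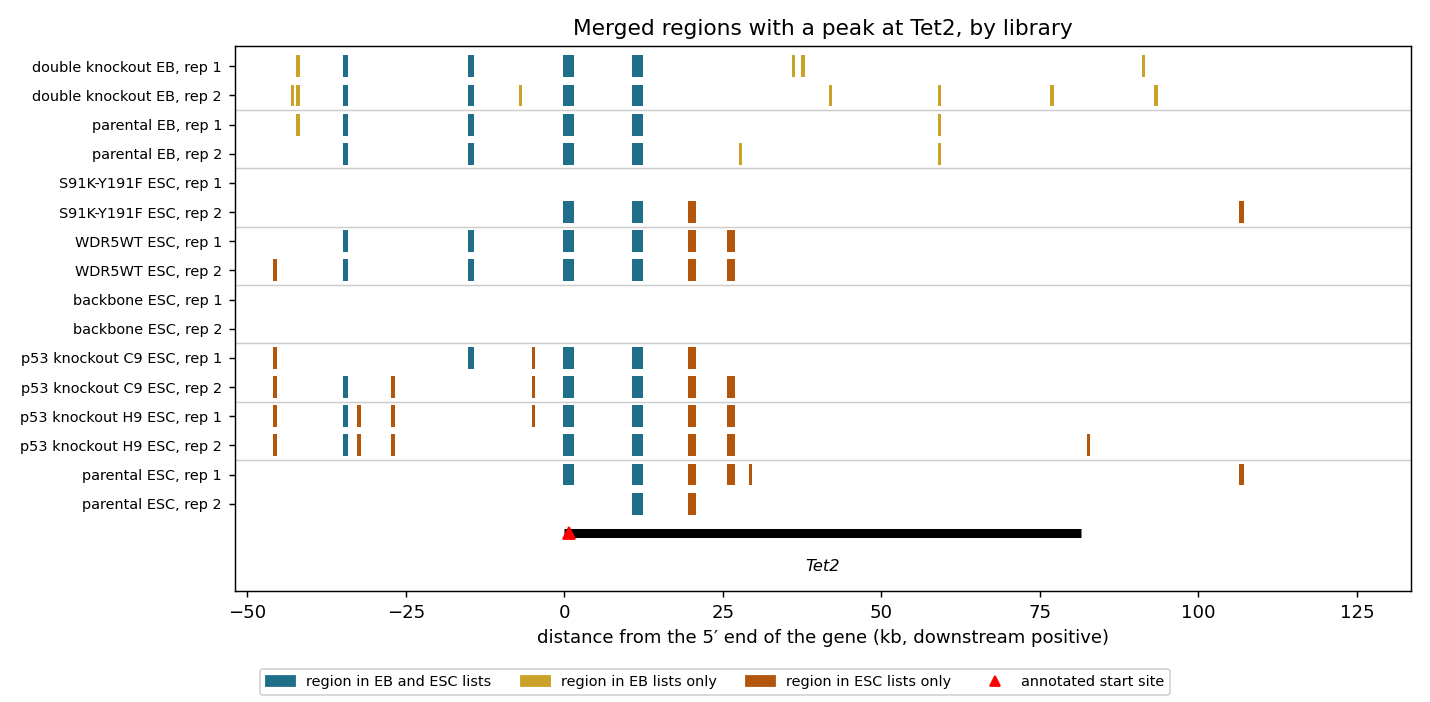
Merged regions at Tet2 by library (rows) and distance from the 5′ end of the gene in kb (downstream positive). Bars mark a peak in that library. The bars at 20.2 and 26.3 kb occur in 9 and 6 ESC lists and in no EB list, beside the start site and the 11.5 kb regions, which occur in all EB lists.

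Tet3 (chromosome 6, 83362373 to 83457208, minus strand), known as the Tet enzyme of oocytes and neural tissue, had its annotated start site inside the gene, 15.7 kb from the 5′ end. The region there, 83440937 to 83442170, had a fold enrichment of 3.64 and 4.44 in double knockout EBs and 4.06 and 4.17 in parental EBs, and signals of 535 and 838 in WDR5WT, 506 and 852 in C9, 610.5 and 645 in H9 and 389 and no peak in parental ESCs. The region at the 5′ end, 83455866 to 83457368, was in all EB lists, in both WDR5WT libraries (365 and 612) and in H9 replicate 2 (228). An intragenic region at 83421634 to 83422561 had some of the higher EB values of the locus, with a fold enrichment of 5.43 and 5.59 in double knockout EBs and 5.45 and 6.90 in parental EBs, against 1 peak each in C9 (239) and H9 ESCs (393). Most other Tet3 peaks shared by EB and ESC lists lay at Mthfd2, Mob1a, Bola3 and Dguok.

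Over the start sites of the 8 genes, EB lists were complete and backbone lists empty. All 8 genes had a peak in at least 1 of their start site windows in each of the 4 EB lists, with 10 to 13 of the 15 windows covered, against 58.0% to 61.1% of all windows genome-wide. WDR5WT ESCs covered 8 and 11 of the 15 windows (46.7% and 52.4% of all windows), C9 ESCs 6 and 6 (39.9% and 41.2%), H9 ESCs 8 and 7 (45.4% and 46.4%), parental ESCs 6 and 3 (37.4% and 11.5%) and S91K-Y191F ESCs 3 and 5 (12% and 31.6%). Backbone ESCs covered none of the 15, and 1.00% and 4.33% of all windows. By role, the maintenance genes Dnmt1 and Uhrf1 had a start site peak in all ESC lists but those of backbone, Tet2 in 8 and Tet3 in 7 of 12. The de novo genes and their cofactor, Dnmt3a, Dnmt3b and Dnmt3l, had one in 2 or 3 at any start site, and Tet1 in 1. How many other genes had a start site peak in as many ESC lists was not counted, so these numbers show nothing particular to a role. The Dnmt3a count depends on the window. Widened by 500 bp, its 3 windows had a peak in 3, 3 and 4 ESC lists, while the counts of Dnmt3b, Dnmt3l and Tet1 did not change.

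**Figure D4:**
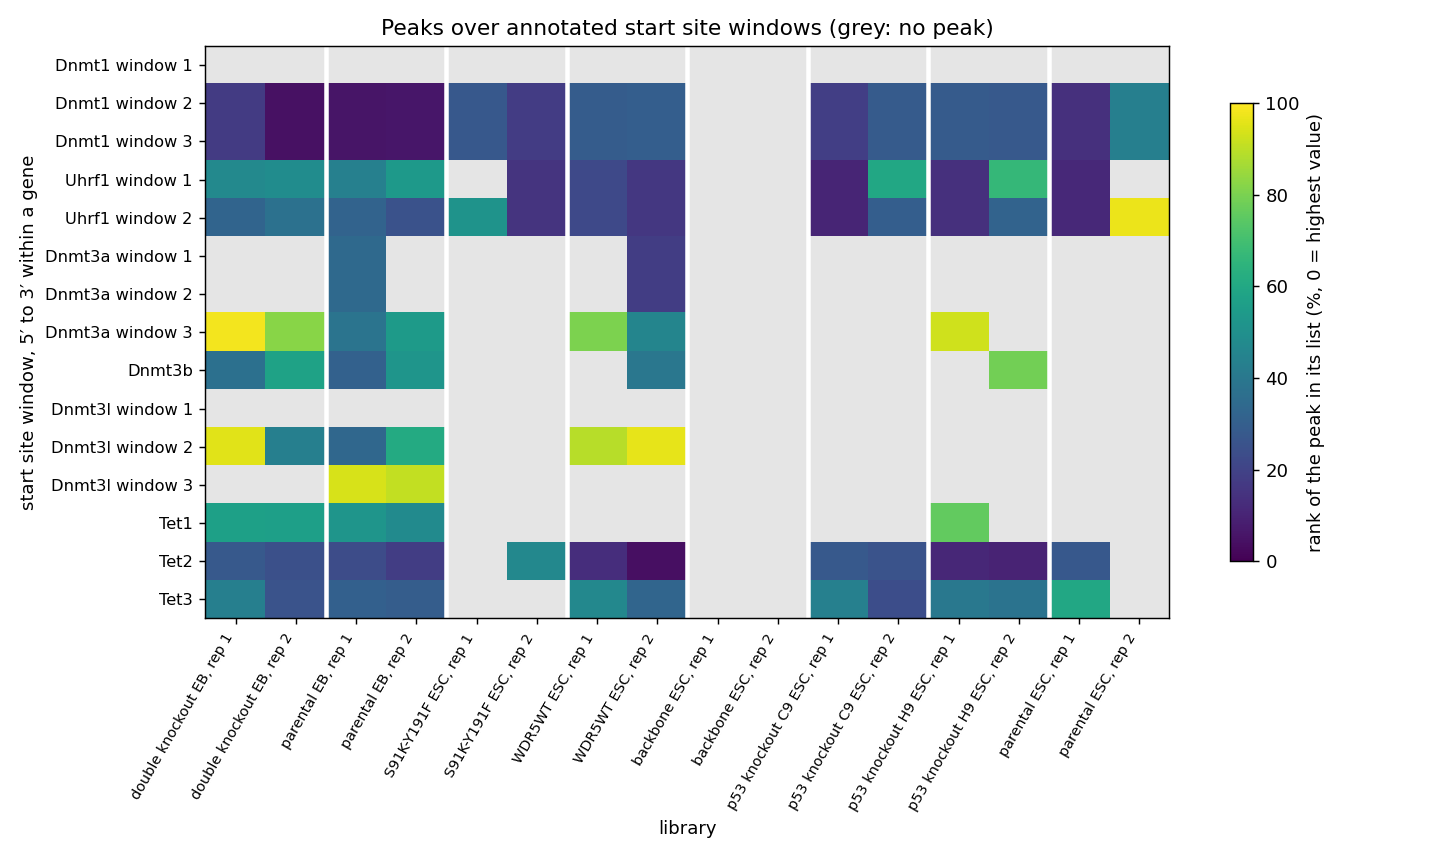
Peaks over the 15 annotated start site windows (rows, numbered from 5′ to 3′ within a gene) by library (columns). Colour gives the rank of the peak in its own list in percent, with 0 for the highest value, and grey marks no peak. Dnmt1 windows 2 and 3 and Uhrf1 window 2 are filled in all libraries but those of backbone ESCs, while the Dnmt3a, Dnmt3b, Dnmt3l and Tet1 rows are nearly empty in ESCs.

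The comparison of double knockout with parental EBs asks what loss of Wdr5 and p53 changes during differentiation. The design text of the series names EBs of days 2 and 4, so the double knockout EBs may be of another day than the parental ones, and day and genotype cannot be told apart. The call used for it and for the pairs below counts a region for a group if both its libraries (all 4 for the p53 knockouts) list a peak there while the other group lists none, and it has no test. At the 8 loci, 2 of 74 regions were found only in double knockout EBs (2.70%, against 12.6% of all regions) and 8 only in parental EBs (10.8%, against 11.4%), and 64 were in all 4 lists. A library left out no longer has to hold or lack a peak, so counts without it can hardly fall, here and in the pairs below. Without double knockout replicate 1 or 2 the double-knockout-only counts were 14 and 20, and without parental replicate 1 the same count was 5. With equal list length, each list being held to its highest-ranked peaks by signal or fold enrichment at the length of the shortest list of the pair, there were 1 double-knockout-only and 8 parental-only regions. Parental-only regions numbered 14 without double knockout replicate 2, and 18 and 21 without parental replicates 1 and 2. Dnmt3a held 5 of the 8 parental-only regions and 1 of the double-knockout-only regions, of its 19 regions. The parental-only regions at Dnmt3a lay at 3772360 to 3772777, 3816930 to 3817350, 3850178 to 3850480, 3920295 to 3920619 and 3926188 to 3926447, with fold enrichments of 2.54 to 3.81, and the double-knockout-only region at 3889892 to 3890201, with 2.13 to 2.77. The same Dnmt3a region was also in both WDR5WT ESC lists. The other parental-only regions lay 7.50 kb upstream of Dnmt3b (2.78 to 2.91), at the third Dnmt3l start site (2.61 to 2.76) and inside Tet3 (3.09 to 3.66), and the other double-knockout-only region lay 54.7 kb downstream of the Dnmt3l 5′ end (3.38 to 4.13). Dnmt1, Uhrf1, Tet1 and Tet2 had none. No gene of the 8 had an end peak in one EB genotype only, against 0.694% of all genes for double knockout and 0.818% for parental EBs.

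Backbone ESCs, which lack WDR5, and parental ESCs addressed the loss of WDR5 together with p53 in undifferentiated cells. No region at the 8 loci was found only in backbone ESCs (2.77% of all regions), 6 of 7 only in parental ESCs (74.7% of all) and 1, that by Kdm4b, in both groups. The parental-only regions were the start site regions of Dnmt1 and Uhrf1, the Tet2 regions at 11.5 and 20.2 kb, and regions by Fem1a and Plin3 in the Uhrf1 window. The count was 33 without parental replicate 2, the shorter list, where a peak in parental replicate 1 alone was enough, and 0 with equal list length. Uhrf1 was the 1 member with an end peak in parental ESCs alone, beside 7.92% of all genes.

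The rescue with S91K-Y191F WDR5 was set against backbone ESCs, and 6 of 7 regions were found only in S91K-Y191F ESCs (71.7% of all regions) and none only in backbone ESCs (1.87% of all). They were the start site regions of Dnmt1 (signals 538 and 950.1) and Uhrf1 (349 and 1026) and 4 regions by Fem1a and Plin3. The merge over all 16 lists joins those 4 into 1 region by each of these genes. Without S91K-Y191F replicate 1 the count was 27, and with equal list length it was 1. Uhrf1 was the 1 member with an end peak in S91K-Y191F ESCs alone, beside 8.32% of all genes. With WDR5WT, 32 of 33 regions were found only in WDR5WT ESCs (95.3% of all regions) and none only in backbone ESCs (3.22%). These 32 came from all 8 loci, with 7 at Dnmt3a, 6 each at Tet2 and Tet3 and 1 at Dnmt3b. Uhrf1, Tet2 and Tet3 had an end peak in WDR5WT ESCs alone, beside 43.7% of all genes. Backbone lists are far shorter than WDR5WT lists, the share at the 8 loci is near the background, and with equal list length 0 regions were WDR5WT-only and 1 was backbone-only.

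The mutant and wild-type rescues were compared directly. No region was found only in S91K-Y191F ESCs (5.34% of all regions), 14 of 20 only in WDR5WT ESCs (75% of all) and 6 in all 4 lists. Dnmt3a held 5 of the 14, including both start site regions and those at 69.9 and 88.5 kb, Tet2 and Tet3 held 3 each, Dnmt3l 2 and Dnmt1 1, and Uhrf1, Dnmt3b and Tet1 none. The regions in all 4 lists were at Uhrf1 (4) and Dnmt1 (2). Without S91K-Y191F replicate 2, the longer list, 28 regions were WDR5WT-only, and without replicate 1, 6 were S91K-Y191F-only. With equal list length 2 regions were S91K-Y191F-only and 1 was WDR5WT-only, counts too small to give a direction. Tet3 was the 1 member with an end peak in WDR5WT ESCs alone, beside 15.9% of all genes.

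WDR5WT ESCs and the 4 p53 knockout libraries both lack p53 and have WDR5, which is a transgene in the WDR5WT cells. Their lists were of like length, and 20 of 23 regions at the 8 loci were in all 6. Another 3 were found only in WDR5WT ESCs (13.0%, against 7.69% of all regions) and none only in p53 knockout ESCs (4.37%). They were the second Dnmt3l start site (signals 237 and 213), an intragenic Dnmt3a region at 3889766 to 3890255 (233 and 234) and a region 39.5 kb upstream of Dnmt3b (357 and 235). All but 1 of these signals lie close to 200, the least an ESC list holds. Without H9 replicate 1 the WDR5WT-only count was 5, and the p53-knockout-only count was 1 without WDR5WT replicate 2, 1 without H9 replicate 2 and 2 without C9 replicate 1. With equal list length 2 regions were WDR5WT-only and 1 was p53-knockout-only. No member had an end peak in one of these groups only, beside 1.15% of all genes for WDR5WT and 0.119% for p53 knockout ESCs.

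The p53 knockout libraries against parental ESCs address the loss of p53 alone. The 1 region found only in p53 knockout ESCs, of 9 (55.4% of all regions), was that 45.7 kb upstream of Tet2, with signals of 314 to 486. None was found only in parental ESCs (11.4%), and 8 were in all 6 lists, at Uhrf1 (4), Dnmt1 (2) and Tet2 (2). The p53-knockout-only count was 13 without parental replicate 1, 4 without C9 replicate 1, 2 without H9 replicate 2 and 0 with equal list length, and the parental-only count was 4 without parental replicate 2. The wide-peak form of the parental lists cannot be told apart from p53 status here. No member had an end peak in p53 knockout ESCs alone, beside 4.5% of all genes. Between the 2 clones, which share their genotype label, no region was found only in C9 (4.18% of all regions) and 2 of 23 only in H9 (8.56%). Those were at Dnmt3a, 3806153 to 3806678 (210 and 223), and 32.4 kb upstream of Tet2 (332 and 286). The H9-only count was 4 to 8 when single libraries were left out, and the C9-only count 3 without C9 replicate 2 and 1 without H9 replicate 1. With equal list length 1 region was C9-only and 3 were H9-only. No member had an end peak in H9 alone, beside 2.3% of all genes.

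Parental EBs against parental ESCs follow differentiation in the parental line. Of 62 regions, 54 were found only in EBs (87.1%, against 90.1% of all regions), 1 only in ESCs (1.61%, against 3.5%) and 7 in all 4 lists. Dnmt3b had 15 EB-only regions, Dnmt3a 14, Dnmt1 6, Tet3 5, Uhrf1 and Dnmt3l 4 each, and Tet1 and Tet2 3 each. The ESC-only region was that 20.2 kb inside Tet2, and the count was 5 without parental ESC replicate 2 and 2 without parental ESC replicate 1. Dnmt3b, Tet1 and Tet3 had an end peak in both parental EB and neither parental ESC library, beside 24.9% of all genes. At Tet3 that peak is not at the annotated start site, which had a peak in parental ESC replicate 1 (signal 389). Lists of the EB and ESC stages differ in length and in caller columns. With equal list length 1 region was EB-only and 3 were ESC-only, so the EB-only count was not kept. The part of the caller columns was not tested.

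**Figure D5:**
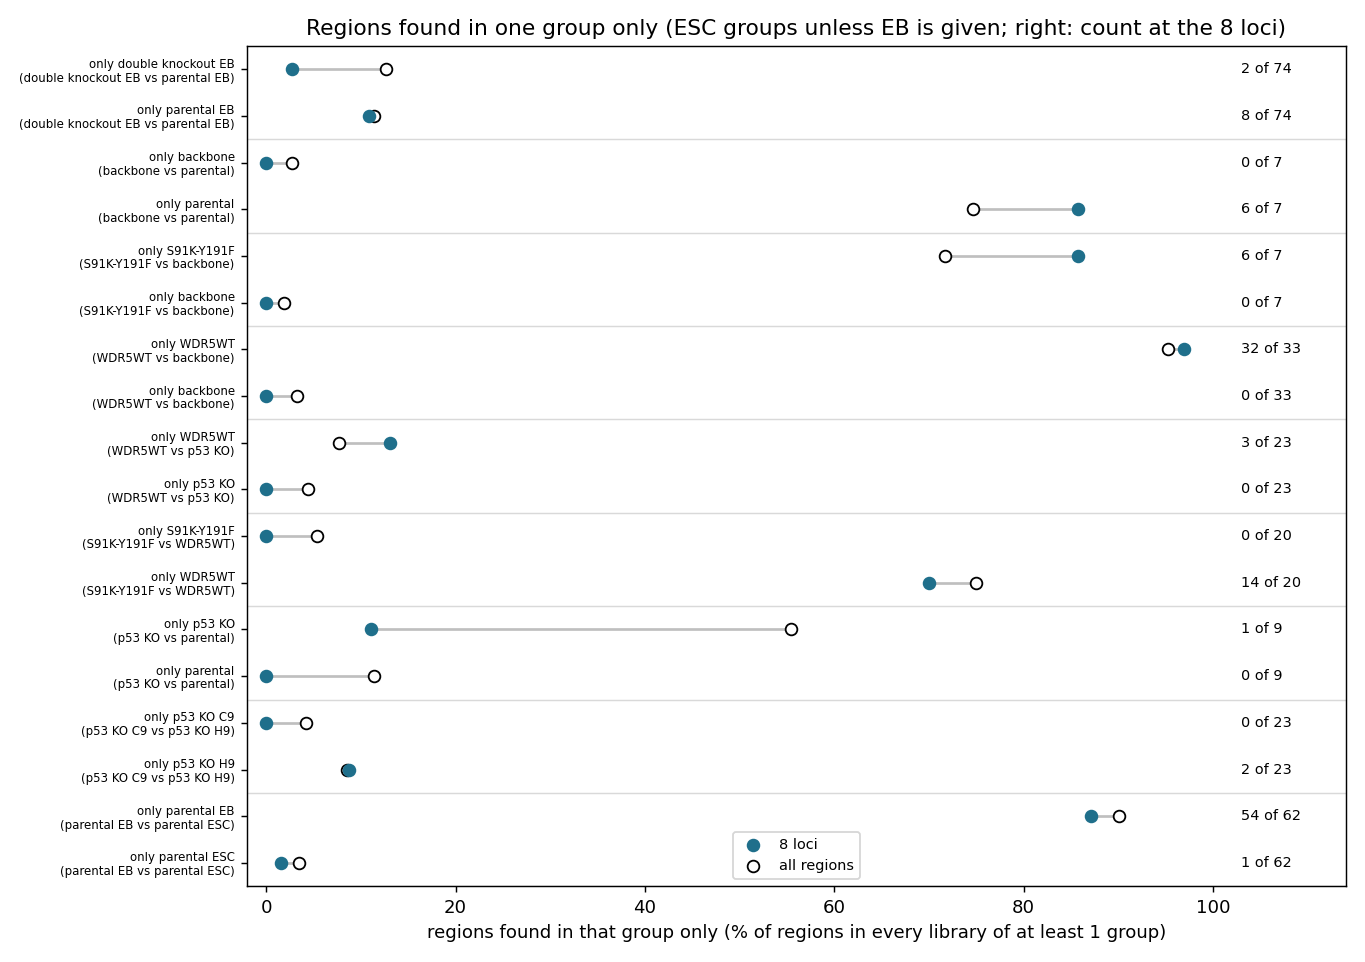
Share of regions found in one group only, in percent of the regions that all libraries of 1 or both groups of the pair share, for the 8 loci (filled) and for all regions (open), with the count at the 8 loci at the right. The loci lie below the genome-wide share for p53-knockout-only regions against parental ESCs (1 of 9, against 55.4%, a count of 13 without parental replicate 1). They also lie below it for double-knockout-only regions in EBs (2 of 74, against 12.6%). Beside backbone ESCs they lie above it for S91K-Y191F-only (6 of 7, 85.7%, against 71.7%) and parental-only regions (6 of 7, 85.7%, against 74.7%). WDR5WT-only regions beside p53 knockout ESCs also lie above it (3 of 23, 13.0%, against 7.69%). All these counts are small, and each fell with equal list length.

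A list of 42 other genes of the pathway (methyl-CpG readers, CXXC proteins, base excision repair, histone methylation partners and methyl donors) was read in the same way at gene ends. In EBs 34 of 42 had an end peak in all 4 libraries (61.2% of all genes), 1, the deubiquitinase gene Usp7, in parental EBs alone (0.818% of all genes) and none in double knockout EBs alone (0.694%). WDR5WT and p53 knockout ESCs shared 23 of 42 (38.1% of all genes), and no list gene had an end peak in one of these groups only. In p53 knockout ESCs alone, against parental ESCs, there were 3 (Ctcf, an insulator protein, Hells, a chromatin remodeller, and Zbtb33, a methyl-CpG reader), beside 4.5% of all genes, and in H9 alone, against C9, there were 2 (Gadd45b and Tdg, a thymine glycosylase that acts after Tet enzymes), beside 2.3%. In S91K-Y191F ESCs alone, against backbone ESCs, there were 5 (8.32% of all genes), of which Mat2a makes the methyl donor and Mbd2 and Mbd3 belong to NuRD complexes. In WDR5WT ESCs alone there were 23 against backbone ESCs (43.7% of all genes), among them Ahcy, Apex1 and Cdca7, and 4 against S91K-Y191F ESCs (Cxxc5, Kdm2a, Setd2 and Tdg), beside 15.9%. In parental ESCs alone, against backbone ESCs, there were 4 (Cdca7, Mat2a, Mbd4 and Pcna), beside 7.92% of all genes, and in parental EBs alone, against parental ESCs, 13, among them Ctcf, Cxxc5 and Ehmt1, beside 24.9%.

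The end peaks of the 8 genes over the 16 libraries fell into different patterns. Uhrf1 had one in 14 lists, Tet2 in 12, Tet3 in 7, Dnmt3b in 6, Dnmt3l and Tet1 in 5 each, Dnmt1 in 1 and Dnmt3a in none. The state of Uhrf1 was matched in all 16 libraries by 989 other protein-coding genes, and on the pathway list by Mat2a, Mbd4 and Pcna. Tet2 was matched by 2792 genes, among them Ahcy, Apex1 and Cxxc1 of the list. Dnmt3b was matched by 137 genes and on the list by Ehmt1, and Tet3 by 123 genes and on the list by Kdm2a. Tet1 was matched by 55 genes, none of them on the list, where 4 genes, among them Ehmt2, Kdm2b and Setdb1, came nearest with 15 of 16 libraries. Dnmt3l was matched by 1 gene, and Prdm14 came nearest on the list with 15 libraries. No match is given for Dnmt1 and Dnmt3a, whose start site peaks lay more than 1 kb from either annotated end. The start site peaks of Dnmt3l and Tet3 also lay more than 1 kb from either end. Their end peaks and matches therefore describe other peaks and not those at the start sites.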

How the data were processed

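The data were the 16 deposited peak lists. Per the submitters' processing notes, the build was mm10 and the tools included MACS2 2.1.2, Genrich 0.6, DESeq2, SAMtools and Bowtie2 2.3.5; the role of each is not given in the sources used here. The deposited ESC lists give a score, a signal of unstated scaling, a −log10 p and a q column of -1 throughout. The deposited EB lists give a score, a fold enrichment (a ratio to local background), −log10 q and −log10 p. The authors' p-values served only to rank the peaks of one list. Depth is unknown, so no counting interval is given.

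Peaks of chromosomes X, Y and 1 to 19 that overlapped by 1 bp or more formed a region. Two-sided exact permutation tests compared peak numbers per locus. Gene coordinates came from RefSeq (GRCm38.p6), in which all 8 members and all 42 pathway genes matched. Named regions were those found in one group only, in most lists or at a gene end or start site. Pathway genes are named alphabetically, up to 3 per comparison, with other small counts given whole. The members, lists and rules were chosen with earlier results of these data known. Calling of regions was checked on simulated lists of separate narrow peaks. These held no split or very wide peaks and no large difference in list length, so the check does not cover those features of the real lists. Alternatives covered list length, p, overlap, merging, flank width, end window, replicate block and each library left out. Python 3.11.15, numpy 2.4.6, pandas 2.3.3 and matplotlib 3.10.9 were used.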

Additional observations from a re-analysis of the deposited data

Results flagged for a closer look

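Of 8 loci screened over the 4 p53 knockout libraries, 2 were flagged for a library apart from the other 3. Where 3 counts are equal, the rule flags any difference, even of 1 peak. How often chance meets it with such counts is not known. H9 replicate 1 had 6 peaks at Uhrf1, against 7 in each of the others, and H9 replicate 2 had 1 peak at Dnmt3b, over its start site, against 0. Peak numbers at Tet2 differed in opposite directions in EBs and ESCs, and how many other genes meet this rule was not counted. Double knockout EBs had 3 more peaks at Tet2 than parental EBs (8 and 11, against 6 and 7), while backbone ESCs differed from parental ESCs by -4.5 peaks (0 and 0, against 6 and 3). No Tet2 region was found in one EB genotype only, and of its 15 regions in EBs 4 were in every EB list. The difference between these effects was not tested, and the backbone lists are the shortest of the series.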

How the results depend on the processing

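The counts of regions found in one group only kept within 1.5 times their values under an overlap of at least 50% and under merging across 200 bp in all 18 cases, and under equal list length in 6 of 18. With equal list length the counts were 1 for double knockout only (EBs), 0 for parental only against backbone, 1 for S91K-Y191F only against backbone, 0 for WDR5WT only and 1 for backbone only between those groups. In the other pairs they were 1 for p53 knockout only against WDR5WT, 2 for S91K-Y191F only and 1 for WDR5WT only between the rescues, 0 for p53 knockout only against parental ESCs, 1 for C9 only, and 1 for parental EBs only and 3 for parental ESCs only between the stages. With the upper 50% of each list by p they were 1 and 3 for double knockout and parental EBs, 2 for parental only against backbone, 3 and 14 for S91K-Y191F and WDR5WT only against backbone, 1 for WDR5WT only against p53 knockout, 5 for WDR5WT only against S91K-Y191F, 2 for p53 knockout only against parental ESCs and 1 for H9 only. With 10 kb flanks they were 1 for double knockout only, 2 and 15 for S91K-Y191F and WDR5WT only against backbone, 9 for WDR5WT only against S91K-Y191F, 0 for p53 knockout only against parental ESCs, 1 for H9 only and 33 for parental EBs only. With 100 kb flanks they were 2 for p53 knockout only against WDR5WT, 3 and 1 for p53 knockout and parental only, 4 for H9 only and 2 for parental ESCs only against EBs. Asking for 3 of 4 p53 knockout libraries gave 3 against WDR5WT and 5 against parental ESCs. The cause of these shifts was not tested, apart from narrower flanks holding fewer regions. Leaving out a library, as below, eases the rule, since fewer libraries must then hold or lack a peak, so those counts can hardly fall.

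Leaving out each library gave 2 to 20 for double knockout EBs and 11 to 21 for parental EBs, 6 to 33 for parental only against backbone, 6 to 27 for S91K-Y191F only against backbone, 3 to 5 for WDR5WT and 0 to 2 for p53 knockout only between them, 0 to 6 for S91K-Y191F and 14 to 28 for WDR5WT only between the rescues, 1 to 13 for p53 knockout and 0 to 4 for parental only between them, 0 to 3 for C9 and 4 to 8 for H9, and 1 to 5 for parental ESCs only against EBs.

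The 3 ESC regions with no EB peak were 2 to 4 under the 4 other rules, all chosen after seeing the data, as was the wider start site window. With end windows of 500 bp all 18 member counts kept within 1.5 times their values, and with 2500 bp 15 of 18 did. Scaling to list length turned the direction of 11 of 72 differences in peak number per locus, and 10 kb flanks that of 4. With the replicate number as a block the lowest exact p over the 72 differences was 0.111, and the Tet2 difference between double knockout and parental EBs stayed at 3 peaks (exact p = 0.5), and no difference was past 0.05 with or without it, which so few libraries cannot reach. Same-numbered libraries share only a number: deviations per gene correlated between -0.0301 and 0.0246 in the 7 pairs of 2 against 2 libraries.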
